A study of Mus musculus with 9 samples.

Results

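Bmpr2 encodes the bone morphogenetic protein (BMP) type II receptor, and its messenger RNA averaged 3.97 times as high in the nucleus accumbens library of mice withdrawn from cocaine, and 3.83 times as high in that of cocaine-treated mice, as in the library of saline-treated mice. It is described here with the 9 genes that work beside it, the activin type II receptors Acvr2a and Acvr2b, the type I receptors Bmpr1a, Bmpr1b and Acvr1, the receptor-activated Smads Smad1, Smad5 and Smad9, and the common-mediator Smad, Smad4. These 10 genes were picked by name from a deposited table of 21423 genes. Bmpr2 led the choice because its value was already known to differ between the libraries, so its own difference is given as a description and is no test.

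BMPs and activins are secreted proteins of the TGF-beta family that bind a complex of type II and type I receptor kinases. The type II receptor phosphorylates the type I receptor, which phosphorylates receptor-activated Smads; these pair with Smad4, enter the nucleus and regulate genes such as those of the Id family. BMPR2 is best known because loss-of-function variants cause heritable pulmonary arterial hypertension in humans, and in neurons the long cytoplasmic tail of the receptor binds LIM kinase, a regulator of the actin cytoskeleton.

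The nucleus accumbens is the ventral part of the striatum and a centre of reward learning. All mice were adult C57BL/6 males of 2 to 5 months that were injected intraperitoneally once a day for 7 days. The withdrawal group received cocaine and was killed 8 days after the last dose, the cocaine group was killed 24 h after the last dose, and the saline group received 10 ml/kg of saline and was killed 24 h after the last injection. The cocaine dose was 10 or 20 mg/kg per day, without word in the labels on which sample had which. RNA of 8 mice was pooled in equal amounts for each group, made into 1 poly(A) library, and run in 3 sequencing lanes.

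The 9 samples are therefore 3 libraries in 3 lanes each, so the spread between lanes is technical and no p-value about the treatment can be had. Values are RPKM made by the authors, that is, reads scaled to the length of the gene model and to the lane total, which puts genes on a scale per length, as far as the gene model fits the transcript. Lane totals ran from 5546362 to 12026754 reads. Differences are given on the scale log2(RPKM + 0.5), as a mean over lanes ± the standard error (SE) from the lanes; this scale understates changes of low genes. A gene was called higher or lower when 2 libraries differed by at least 1.5 times, a difference of 0.58 on this scale, and their ranges of lane values did not overlap. The rule was applied to the 14051 genes that averaged 1 RPKM or more across all 9 lanes, and all 10 receptor and Smad genes were among them. In read equivalents per lane the 10 genes held between 47.8 for Acvr2b and 725 for Smad4, at their lowest and highest.

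The tissue label was checked against markers of striatal medium spiny neurons, all 11 of which were above the minimum. The most abundant, Penk, encodes proenkephalin and measured 832 to 848 RPKM in withdrawal lanes, 729 to 800 RPKM in cocaine lanes and 975 to 1049 RPKM in saline lanes. Levels of these markers differed between the libraries, with a sum of 1770 to 1793 RPKM in withdrawal lanes, 1464 to 1549 RPKM in cocaine lanes and 2022 to 2123 RPKM in saline lanes. Penk and Ppp1r1b held most of that sum, so it does not stand for the list. Against saline 5 of the 11 lay above 0 and 6 below for withdrawal, with a median of -0.01. For cocaine 1 lay above and 10 below, with a median of -0.31. For cocaine against saline 2 of the 11 were called lower and 0 higher, beside 2.41% and 2.93% of all tested genes. Among the 2 was Ppp1r1b, which encodes the dopamine-regulated phosphoprotein DARPP-32, at -0.75 ± 0.04. Cocaine lanes lay wholly below saline for 8 markers and wholly above for 1, beside 23.9% and 18.3% of all genes. For withdrawal against saline 1 was called higher and 0 lower, beside 3.96% and 3.37%. Withdrawal lanes lay wholly below saline for 3 markers and wholly above for 2, beside 25.6% and 18.6%. All 11 had withdrawal lanes wholly above cocaine, beside 8.66% of all genes, and 0 were called there, beside 0.47% higher and 0.548% lower. The libraries differed in a marker of cortical projection neurons, Slc17a7, the vesicular glutamate transporter VGLUT1, which measured 3.29 to 4.34 RPKM in withdrawal lanes and 5.01 to 5.83 RPKM in cocaine lanes, against 17.4 to 19.4 RPKM in saline lanes. Of the 4 tested markers of these neurons 1 was called lower for cocaine and 2 for withdrawal against saline, beside 2.41% and 3.37% of all tested genes. The others did not all lie on that side. Cux2, the next most abundant, measured 9.01 to 10.2 RPKM in withdrawal lanes and 9.09 to 9.97 RPKM in cocaine lanes, against 6.38 to 7.36 RPKM in saline lanes, with differences of 0.48 ± 0.08 for withdrawal and 0.44 ± 0.07 for cocaine that were not called; Emx1, listed but under the minimum level, was at 0 in 4 lanes. The summed level of the list was 16.4 to 18.4 RPKM in withdrawal lanes and 18.03 to 22.03 RPKM in cocaine lanes, against 29.9 to 33.0 RPKM in saline lanes. Slc17a7 held most of that sum in saline lanes, so the sum largely restates its values and does not stand for the list. Of the 4 tested markers 2 lay below 0 and 2 above for cocaine, and 3 below and 1 above for withdrawal against saline. Whether the makeup of the tissue taken plays a part in any difference below was not tested, and in bulk tissue fewer cells of a type and less RNA per cell cannot be told apart.

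Bmpr2 measured 14.3, 15.4 and 15.8 RPKM in the 3 withdrawal lanes, 14.1, 15.0 and 14.8 RPKM in the 3 cocaine lanes, and 4.10, 3.30 and 4.06 RPKM in the 3 saline lanes. Every withdrawal and cocaine lane lay far above every saline lane. The means were 15.2 ± 0.81 RPKM in withdrawal, 14.6 ± 0.45 RPKM in cocaine and 3.82 ± 0.45 RPKM in saline (SD, n = 3 lanes of 1 library each). Cocaine exceeded saline by 1.81 ± 0.092 log2 units, the 8th highest difference of the 14051 tested genes, and withdrawal exceeded saline by 1.86 ± 0.10 log2 units, the 14th highest. The withdrawal and cocaine lanes overlapped, with a difference of 0.05 ± 0.05 log2 units. These values rest on 1040 read equivalents in the withdrawal library, 1242 in the cocaine library and 355 in the saline library.

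**Figure D1:**
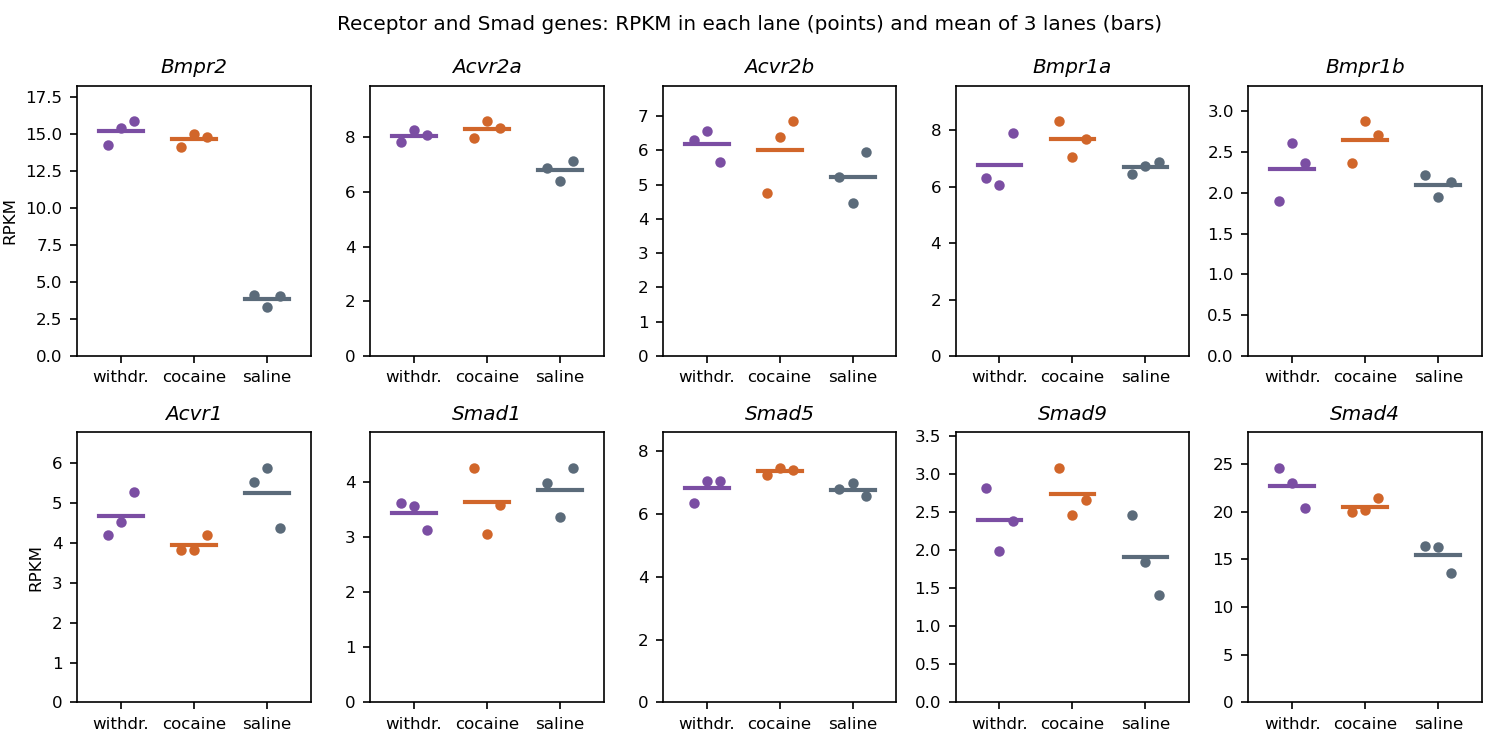
RPKM of the 10 receptor and Smad genes in each of the 3 lanes (points) of the withdrawal, cocaine and saline libraries, with the lane mean as a bar; each panel has its own axis from 0. The Bmpr2 points sit between 14.1 and 15.8 RPKM in withdrawal and cocaine lanes and between 3.30 and 4.10 RPKM in saline lanes, and no other panel shows a gap of that size.

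The other type II receptors differed far less. Acvr2a, which binds activins and several BMPs, measured 7.83, 8.25 and 8.08 RPKM in withdrawal lanes, 7.97, 8.59 and 8.34 RPKM in cocaine lanes, and 6.89, 6.39 and 7.13 RPKM in saline lanes. Its lanes did not overlap those of saline in either group, yet the differences of 0.27 ± 0.05 for cocaine and 0.23 ± 0.05 for withdrawal lay under the limit of a call. Acvr2b, its close relative, measured 6.31, 6.58 and 5.67 RPKM in withdrawal lanes, 4.76, 6.40 and 6.85 RPKM in cocaine lanes, and 5.24, 4.46 and 5.95 RPKM in saline lanes. The Acvr2b lanes of all 3 libraries overlapped, with differences of 0.18 ± 0.18 for cocaine against saline and 0.23 ± 0.12 for withdrawal against saline. Exons of Acvr2a overlap exons of Orc4 on the opposite strand by 446 bp in the reference annotation, and reads of the pair cannot be told apart if the counting ignored strand.

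Set in the sum of the 3 type II receptors, the same Bmpr2 values give its share, which is a restatement and no further result. Bmpr2 made up 51.6 ± 1.7% of the summed RPKM of Bmpr2, Acvr2a and Acvr2b in withdrawal lanes and 50.6 ± 1.7% in cocaine lanes, against 24.1 ± 1.0% in saline lanes (SD, n = 3 lanes). Acvr2a held the largest share in saline lanes at 43.1 ± 1.8%, where withdrawal lanes had 27.4 ± 0.15% and cocaine lanes 28.7 ± 0.94%. The sum itself was 29.4 ± 0.92 RPKM in withdrawal, 28.9 ± 1.8 RPKM in cocaine and 15.8 ± 1.5 RPKM in saline, with no overlap of lanes between either cocaine-treated group and saline.

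The sequence upstream of the 3 type II receptor genes is shown because it holds the promoter DNA of the receptor that was called and of the 2 that were not. Each is the 250 bases before the annotated start of the RefSeq transcript on build GRCm38.p6, on the plus strand, 5′ to 3′, with any GGCGCC, a GC-rich element bound by BMP Smads, in capitals. Bmpr2 lies at chr1:59764029-59764278, Acvr2a at chr2:48813859-48814108 and Acvr2b at chr9:119401928-119402177.
Bmpr2: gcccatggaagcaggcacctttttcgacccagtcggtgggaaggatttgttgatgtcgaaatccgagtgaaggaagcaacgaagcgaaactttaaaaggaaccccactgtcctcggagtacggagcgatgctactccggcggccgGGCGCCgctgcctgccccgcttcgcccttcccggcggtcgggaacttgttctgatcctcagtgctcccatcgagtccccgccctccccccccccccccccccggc
Acvr2a: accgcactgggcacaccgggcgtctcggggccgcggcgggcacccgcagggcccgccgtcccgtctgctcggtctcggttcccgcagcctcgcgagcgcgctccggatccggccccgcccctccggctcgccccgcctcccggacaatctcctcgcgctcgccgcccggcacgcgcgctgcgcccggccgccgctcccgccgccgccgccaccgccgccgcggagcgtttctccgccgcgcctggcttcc
Acvr2b: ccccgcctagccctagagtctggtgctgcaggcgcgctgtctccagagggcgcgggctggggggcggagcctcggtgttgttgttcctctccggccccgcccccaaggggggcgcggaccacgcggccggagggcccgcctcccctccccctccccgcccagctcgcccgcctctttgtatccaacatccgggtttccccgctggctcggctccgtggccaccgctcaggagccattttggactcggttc

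The Bmpr2 sequence held 1 GGCGCC and the 2 activin receptor sequences held none, while 9.59% of 32851 RefSeq promoters of the same length held at least 1. It is not particular to Bmpr2, since Bmpr1a, Smad9 and 1 of the 3 Smad5 promoters, genes that were not called, also held 1. None of the 3 held the cyclic AMP response element TGACGTCA, found in 1.55% of promoters, the shorter TGACG, found in 17.8% and part of the full element, the AP-1 motif TGANTCA, found in 6.75%, or the palindromic Smad element GTCTAGAC, found in 0.167%; both strands were searched. All 3 were rich in G and C, with 64.0% for Bmpr2, 82.0% for Acvr2a and 72.8% for Acvr2b beside a median promoter of 52.4%. The Bmpr2 sequence held 22 CG dinucleotides, that of Acvr2a 49 and that of Acvr2b 24, where the median promoter held 6. A match is a description of the letters and not a bound site.

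Among type I receptors, which carry the signal to the Smads, no gene was called in any comparison. Bmpr1a, a BMP type I receptor also named ALK3, measured 6.32, 6.05 and 7.91 RPKM in withdrawal lanes, 8.32, 7.06 and 7.69 RPKM in cocaine lanes, and 6.47, 6.72 and 6.86 RPKM in saline lanes. Its cocaine lanes lay above its saline lanes by 0.19 ± 0.07, and its withdrawal lanes spanned the saline lanes. Exons of Bmpr1a overlap those of the predicted gene Gm17110 on the opposite strand by 290 bp, with the same limit as for Acvr2a.

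Bmpr1b, the type I receptor ALK6, was low, with 1.90, 2.62 and 2.37 RPKM in withdrawal lanes, 2.36, 2.88 and 2.71 RPKM in cocaine lanes, and 2.22, 1.95 and 2.13 RPKM in saline lanes. Cocaine lanes lay above saline lanes by 0.28 ± 0.08, and withdrawal lanes overlapped both. Acvr1, the type I receptor ALK2, was the 1 receptor whose cocaine lanes all lay below its saline lanes, with 4.21, 4.53 and 5.26 RPKM in withdrawal lanes, 3.81, 3.82 and 4.19 RPKM in cocaine lanes, and 5.53, 5.88 and 4.36 RPKM in saline lanes. The difference was -0.37 ± 0.13 for cocaine, and its withdrawal lanes lay above its cocaine lanes by 0.21 ± 0.10.

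The summed RPKM of the 3 type I receptors was alike in the libraries, at 13.7 ± 1.6 RPKM in withdrawal, 14.3 ± 0.46 RPKM in cocaine and 14.0 ± 0.62 RPKM in saline, with overlapping lanes. Within that sum the share of Acvr1 was 34.02 ± 0.28% in withdrawal and 27.6 ± 1.2% in cocaine, against 37.3 ± 4.1% in saline. Bmpr1a held the largest share in every library, with means of 49.2% in withdrawal, 53.8% in cocaine and 47.7% in saline.

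The receptor-activated Smads of the BMP branch are Smad1, Smad5 and Smad9, and none of them was called. Smad1 measured 3.61, 3.55 and 3.12 RPKM in withdrawal lanes, 4.26, 3.06 and 3.59 RPKM in cocaine lanes, and 3.97, 3.36 and 4.25 RPKM in saline lanes, with all libraries overlapping. Smad5, the highest of these 3 Smads, measured 6.35, 7.05 and 7.03 RPKM in withdrawal lanes, 7.24, 7.47 and 7.39 RPKM in cocaine lanes, and 6.78, 6.97 and 6.56 RPKM in saline lanes. Its cocaine lanes lay above both other libraries by small margins, 0.11 ± 0.03 over saline, a value that became -0.02 when differences were centred on genes of like length. Exons of Smad5 overlap those of the predicted gene Gm27301 on the same strand by 100 bp.

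Smad9, also named Smad8, was the lowest of the 10 genes in saline, with 2.82, 1.99 and 2.38 RPKM in withdrawal lanes, 3.09, 2.47 and 2.66 RPKM in cocaine lanes, and 2.47, 1.85 and 1.42 RPKM in saline lanes. The cocaine lanes lay above the saline lanes, though the lowest cocaine lane at 2.471 RPKM and the highest saline lane at 2.469 RPKM almost met. The difference of 0.44 ± 0.20 was not called, and it passed the limit at 0.61 when saline lane 1 was left out.

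Smad4, the partner shared by the BMP and the activin and TGF-beta branches, was the most abundant of the 10 genes in every library. It measured 24.6, 23.0 and 20.4 RPKM in withdrawal lanes, 19.9, 20.2 and 21.4 RPKM in cocaine lanes, and 16.4, 16.3 and 13.6 RPKM in saline lanes. Both cocaine-treated libraries lay above saline in every lane, by 0.40 ± 0.09 for cocaine and 0.54 ± 0.12 for withdrawal. The withdrawal difference fell just short of a call, and it passed at 0.60 with differences centred on the median gene, at 0.61 with lanes scaled to the 75th percentile or centred by gene length, at 0.61 without withdrawal lane 3 and at 0.59 without saline lane 1.

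**Figure D2:**
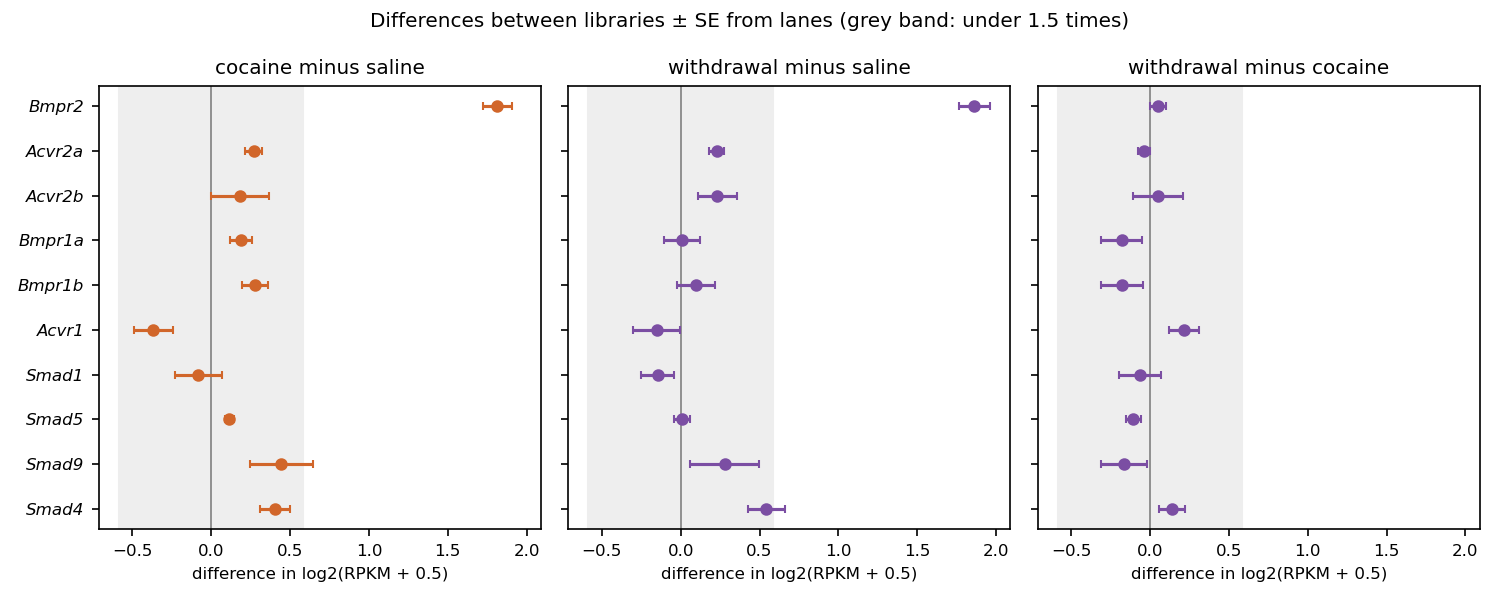
Differences between libraries in log2(RPKM + 0.5) for the 10 genes, as cocaine minus saline, withdrawal minus saline and withdrawal minus cocaine, with bars for the SE from 3 lanes a library; the grey band marks differences under 1.5 times. Bmpr2 stands at 1.81 and 1.86 in the comparisons with saline and at 0.05 between withdrawal and cocaine, and every other gene lies inside the band.

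In cocaine against saline, 1 of the 10 genes was called higher and 0 lower, where 2.93% of all tested genes were called higher and 2.41% lower. In withdrawal against saline, again 1 was called higher and 0 lower, beside 3.96% and 3.37% of all tested genes. The called gene was Bmpr2 in both, which the choice of genes had used. Lanes did not overlap in the higher direction for 7 genes in cocaine against saline, beside 18.3% of all genes, and in the lower direction for 1 gene, Acvr1, beside 23.9%. Bmpr2 is among the 7 and enters the medians below, so these are descriptions too. Also among the 7 are Smad9, whose lanes almost met those of saline, and Smad5, at -0.02 with centring by gene length. In withdrawal against saline 3 genes, Bmpr2, Acvr2a and Smad4, had lanes wholly above saline, beside 18.6% of all genes, and 0 had lanes wholly below, beside 25.6%. The median of the 10 differences was 0.23 for cocaine and 0.16 for withdrawal, beside -0.05 and -0.06 over all tested genes. Under the 3 other scalings it ran from 0.20 to 0.29 for cocaine and from 0.09, with centring by gene length, to 0.23 for withdrawal, and without saline lane 2 the withdrawal median was 0.09. Both comparisons share the saline library, so their likeness is no independent evidence.

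The number of all genes called higher and lower was 411 and 338 for cocaine against saline, and 505 and 230 with differences centred on the median, 535 and 204 with scaling to the 75th percentile, and 477 and 98 with centring by gene length. For withdrawal against saline it was 557 and 473, and 729 and 309, 765 and 280, and 595 and 175 under the same 3 scalings. Bmpr2 was called against saline in all 34 alternatives run over both comparisons, with differences from 1.70 to 1.97.

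Withdrawal against cocaine sets 8 days without the drug beside 24 h. None of the 10 genes was called in either direction, beside 0.47% of all tested genes called higher and 0.548% lower, and no p-value was computed. Acvr1 was the 1 gene with all withdrawal lanes above all cocaine lanes, beside 8.66% of all genes, and Smad5, at -0.11 ± 0.05, the 1 gene with all withdrawal lanes below, beside 9.42%. The median of the 10 differences was -0.05, beside -0.01 over all tested genes.

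The order of levels among the 10 genes placed Smad4 first in every library. Bmpr2 was second in the withdrawal and cocaine libraries, apart from its neighbours Smad4 above and Acvr2a below, and 8th in the saline library, where its lanes overlapped those of Smad1. In the saline library Acvr2a, Smad5 and Bmpr1a followed Smad4 with overlapping lanes, then Acvr1 and Acvr2b, whose lanes overlapped each other, then Smad1 and Bmpr2. Bmpr1b and Smad9 held the last 2 places in every library, with overlapping lanes.

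The RPKM of a gene depends on the gene model its reads were counted over, and the Bmpr2 model was short. Lengths recovered from the deposited values gave 3507 bp for Bmpr2, where the longest transcript of the GENCODE annotation of GRCm38 has 12899 bp, of which 3114 bp are coding. That is a ratio of 0.272, and Bmpr2 was the 1 gene of the 10 with a ratio under 0.5, and its share and its place among the 10 genes rest on that model. The other 9 genes had ratios from 0.531 for Acvr2b to 1.54 for Smad1, and the median over tested genes was 1.06. Which stretch of the transcript the model covers is not given in the sources used here. Each recovered length is the smallest that fits the values, so a true length can be a multiple of it. The ratios and the read equivalents share that limit.

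Among 703 tested genes with models of like length, 3237 to 3531 bp, the median difference was -0.08 in both comparisons with saline, and 0 genes for cocaine and 1 gene for withdrawal exceeded Bmpr2. Among the 537 tested genes whose model was under 0.5 of the longest reference transcript, 9.87% were called higher and 5.59% lower for cocaine against saline, beside 2.50% and 2.29% of the 13238 genes with a longer share. For withdrawal against saline the shares were 11% higher and 6.89% lower in the 537 genes, beside 3.53% and 3.22% in the 13238 genes. This split was chosen after the data had been seen, and its part in the Bmpr2 difference was not tested.

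**Figure D3:**
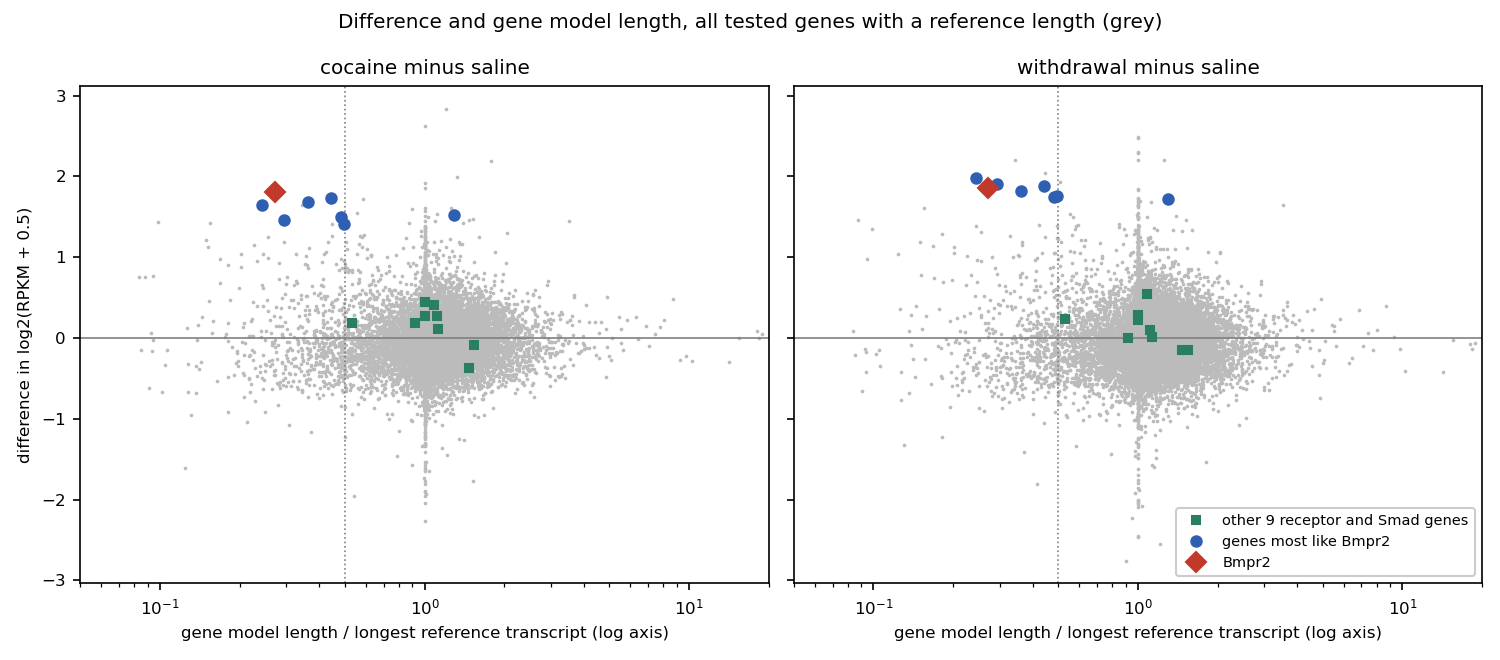
Difference in log2(RPKM + 0.5) against the ratio of the authors' gene model length to the longest reference transcript (log axis) for the 13775 tested genes with a reference length (grey), for cocaine minus saline and withdrawal minus saline; the dotted line marks 0.5. Bmpr2 (diamond) lies at a ratio of 0.272 with differences of 1.81 and 1.86, the other 9 receptor and Smad genes (squares) lie to the right of the line, and 6 of the 7 plotted genes most like Bmpr2 (circles) lie to its left.

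The 8 genes whose values over the 9 lanes were most like those of Bmpr2, by the root mean square difference of log2 values each centred on its own mean, were Tnr, Gm13872, Grin2a, Sv2c, Kcnq3, Gm16750, Igsf9b and Gm5567, with root mean square differences of 0.140 to 0.219. The closest, Tnr, encodes the extracellular matrix glycoprotein tenascin-R and measured 18.6, 18.8 and 19.6 RPKM in withdrawal lanes, 17.7, 16.6 and 16.9 RPKM in cocaine lanes, and 5.14, 5.12 and 4.18 RPKM in saline lanes. Grin2a encodes the GluN2A subunit of the NMDA receptor, Sv2c a synaptic vesicle protein and Kcnq3 a potassium channel subunit. The 8 genes differed from saline by 1.41 to 1.73 for cocaine and 1.69 to 1.98 for withdrawal. They were chosen by these values, so the likeness is no finding; 6 of the 7 with a reference length had a model under 0.5 of the longest transcript, Gm13872 being the exception at 1.30. Exons of Gm13872 overlap those of the glutamate transporter gene Slc1a2 on the opposite strand by 166 bp, and exons of Tnr overlap those of Gm38039 by 338 bp and those of Gm5567 overlap Gm26807 by 143 bp, both also on the opposite strand, so these 3 are uncertain.

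Genes around the receptors were taken from 5 lists. Of 31 ligands found, 13 were tested and 0 were called in either comparison with saline. Over all tested genes 2.93% were called higher and 2.41% lower for cocaine, and 3.96% and 3.37% for withdrawal. In a list this short a count of 0 lies near those shares and is no result about the list. The ligand medians were -0.03 for cocaine and 0.01 for withdrawal, and the cocaine median was 0.02 to 0.06 under the 3 other scalings. The 2 most abundant were Gdf1, which shares exons with Cers1 on the same strand and is uncertain, at -0.18 ± 0.14 and -0.18 ± 0.05, and Inha, the inhibin alpha subunit, at -0.09 ± 0.06 and 0.07 ± 0.12 for cocaine and withdrawal.

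Of the 26 antagonists and co-receptors 17 were tested, and 2 were called higher and 0 lower in both comparisons with saline. Of all tested genes 2.93% were called higher and 2.41% lower for cocaine, and 3.96% and 3.37% for withdrawal. Eng encodes endoglin, a co-receptor of BMP9 and TGF-beta on endothelial cells, and measured 12.8, 12.1 and 11.4 RPKM in withdrawal lanes, 10.8, 9.60 and 11.7 RPKM in cocaine lanes, and 6.13, 7.24 and 6.46 RPKM in saline lanes. Its differences from saline were 0.65 ± 0.10 for cocaine and 0.83 ± 0.08 for withdrawal. Fstl4, a member of the follistatin-like family, measured 8.46, 8.24 and 9.22 RPKM in withdrawal lanes, 7.81, 8.30 and 8.22 RPKM in cocaine lanes, and 4.36, 5.59 and 3.92 RPKM in saline lanes, with differences of 0.76 ± 0.14 and 0.85 ± 0.14. With a limit of 2 times neither gene was called. The median of the 17 was 0.13 for cocaine and 0.04 for withdrawal, and 0.06 and 0.12 with centring by gene length. Rgma and Neo1, a BMP co-receptor and a receptor that binds it, lay at 0.40 ± 0.06 and 0.26 ± 0.08 for cocaine, not called. Exons of Eng overlap those of Fpgs on the opposite strand by 61 bp, and exons of Rgma those of A730056A06Rik by 258 bp.

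Endothelial cells are known to express both Bmpr2 and Eng. Of 11 tested endothelial markers 5 were called higher for cocaine and 8 for withdrawal against saline, and 0 were called lower, where 2.93% and 3.96% of all tested genes were called higher. Of the 11, 10 lay above 0 for cocaine, Esam being the exception at -0.04, and all 11 for withdrawal, with medians of 0.58 and 0.70 and highest differences of 0.80 and 0.86. Their summed level was 87.8 to 94.3 RPKM in withdrawal lanes and 74.97 to 80.9 RPKM in cocaine lanes, against 55.5 to 56.8 RPKM in saline lanes, and none of the 12 listed was at 0 in any lane. The differences of Eng lie within the range of these markers and those of Bmpr2 above it, and the part of endothelial RNA in either was not tested. Of 7 tested mural cell markers 0 were called against saline. The shares of all tested genes were 2.93% higher and 2.41% lower for cocaine, and 3.96% and 3.37% for withdrawal. The listed mural markers summed to 67.6 to 72.9 RPKM in withdrawal lanes, 61.7 to 65.0 RPKM in cocaine lanes and 59.8 to 61.6 RPKM in saline lanes. Against saline all 7 lay above 0 for withdrawal, with a median of 0.36, and 4 had lanes wholly above, beside 18.6% of all genes. For cocaine 4 lay above 0 and 3 below, with a median of 0.20, and 2 had lanes wholly above saline, beside 18.3%.

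Of the 8 tested genes among the other receptors and Smads of the family, 0 were called against saline. Beside this, 2.93% of all tested genes were called higher and 2.41% lower for cocaine, and 3.96% and 3.37% for withdrawal. The medians of the 8 were 0.30 for cocaine and 0.11 for withdrawal, and became 0.11 and 0.02 with centring by gene length. Smad3, a receptor-activated Smad of the activin and TGF-beta branch, measured 13.9, 16.3 and 13.8 RPKM in withdrawal lanes, 12.6, 13.1 and 12.4 RPKM in cocaine lanes, and 9.36, 10.4 and 9.75 RPKM in saline lanes. Its withdrawal difference of 0.55 ± 0.09 was not called and passed at 0.60 with centring on the median and 0.62 with scaling to the 75th percentile, and at 0.59 without withdrawal lane 3 or without saline lane 2, while centring by gene length gave 0.48, not called. The activin type I receptor Acvr1b lay at 0.10 ± 0.06 and 0.11 ± 0.06 for cocaine and withdrawal.

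All 22 genes that regulate Smads or receptors, among them the ubiquitin ligases Smurf1 and Smurf2, were tested and 0 were called against saline. Beside this, 2.93% of all tested genes were called higher and 2.41% lower for cocaine, and 3.96% and 3.37% for withdrawal. The medians of the 22 were 0.08 for cocaine and 0.12 for withdrawal. Both were 0.03 with centring by gene length, and they were 0.15 and 0.19 with scaling to the 75th percentile. The transcriptional co-repressor Ski lay at 0.18 ± 0.06 for cocaine and 0.35 ± 0.09 for withdrawal. Fkbp1a, whose protein FKBP12 binds type I receptors, lay at -0.38 ± 0.04 and -0.32 ± 0.07, and is uncertain because near-identical pseudogenes can take its reads. Of the 15 target genes found, 11 were tested and 0 were called against saline, beside the same shares of all tested genes. All 11 lay below 0 for cocaine, beside 56.5% of all tested genes, and 8 below and 3 above for withdrawal, beside 56.6% below. Lanes lay wholly below saline for 3 in cocaine, beside 23.9% of all genes, and for 2 in withdrawal, beside 25.6%. The medians were -0.22 for cocaine and -0.10 for withdrawal, and became -0.06 and 0.15 with centring by gene length. Id3 and Id4, which encode inhibitors of DNA binding, lay at -0.29 ± 0.11 and -0.17 ± 0.11 for cocaine and at -0.23 ± 0.13 and -0.10 ± 0.05 for withdrawal. In withdrawal against cocaine 0 genes of the 5 lists were called, beside 0.47% of all tested genes called higher and 0.548% lower.

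**Figure D4:**
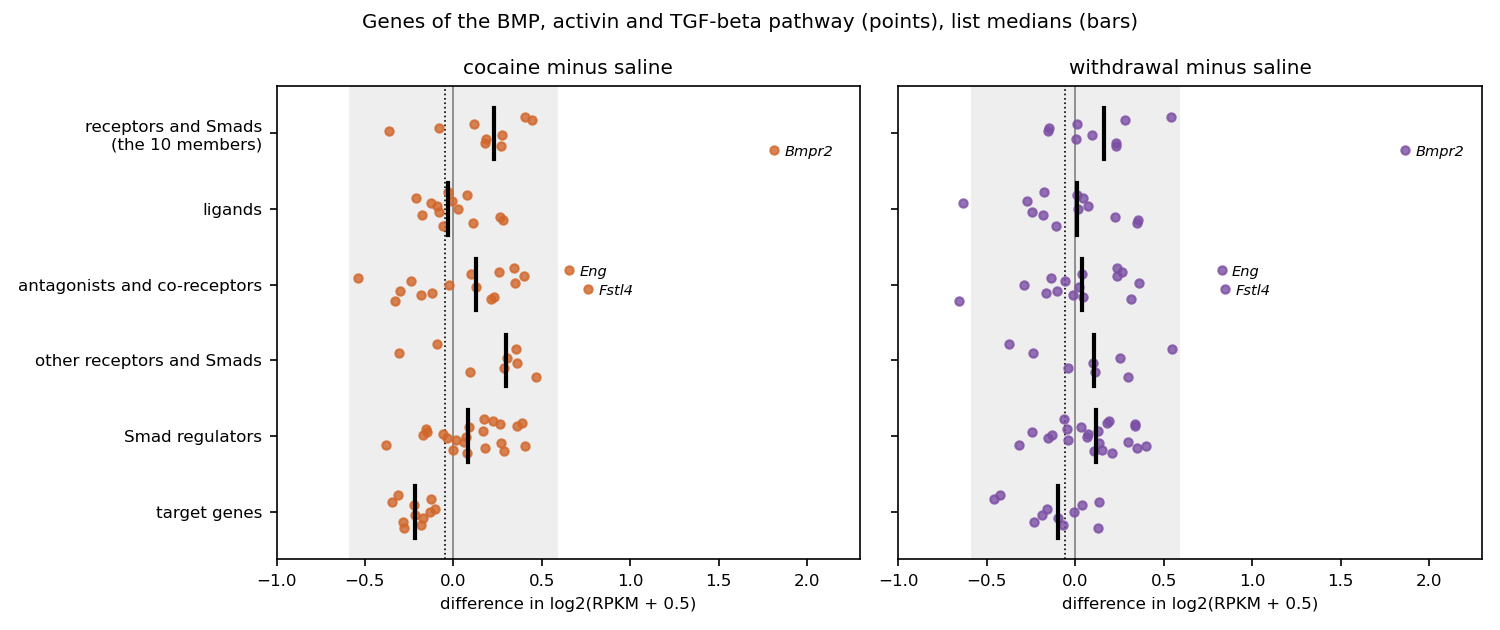
Differences in log2(RPKM + 0.5) of each tested gene (points) of the 10 receptor and Smad genes and of the 5 pathway lists, for cocaine minus saline and withdrawal minus saline; bars mark list medians, the dotted line the median of all tested genes, and the grey band differences under 1.5 times. Bmpr2, Eng and Fstl4 are the 3 genes called against saline; 2 uncalled genes lie left of the band for withdrawal.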

How the data were processed

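Random-primed cDNA of poly(A) RNA, with inserts of about 200 bp, was sequenced for 37 cycles from each end, per the labels' protocols. The submitters' processing notes name Bowtie 0.12.7 and build mm9; which program counted reads, over which annotation, is not given in the sources used here. Values are RPKM that the authors deposited per lane and as 1 composite per library. Multiplied by lane total and gene model length they came out as whole multiples of a read divided by 37 (relative tolerance 2e-13). The smallest length with that property was taken for each of the 21423 genes, and 114 lengths were then multiplied by 37. The values gave no whole reads, so no count test was run. Lengths and exon overlaps were compared with the GENCODE annotation of GRCm38, and promoters came from RefSeq (GRCm38.p6).

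Groups and lane numbers came from the sample titles. Differences were computed with Python 3.11.15, numpy 2.4.6 and pandas 2.3.3. The call rule was tried on simulated lanes that had the lane spread of these libraries. Such lanes hold no variation between animals or libraries, so the trial says nothing on false calls about the treatment. Same-numbered lanes did not deviate together (correlations of -0.051 to 0.076), so lane numbers pair nothing. The 10 genes, the pathway and cell type lists and the rules were chosen with earlier results of these data known. Named were the 10 genes, the called and the 2 most abundant genes of each pathway list, the 8 genes most like Bmpr2 at a mean of at least 3 RPKM, and abundant markers; Smad6 and Bambi were chosen after their values were seen. Alternatives were the pseudocount, the minimum level, the size limit, the condition on lanes, 3 scalings, composites, lane number as a block, and omission of each lane; the split by model length was added after seeing the data. With 3 lanes a library the precision is that of the sequencing, with a median SD between lanes of 0.114 to 0.130 log2 units.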

Additional observations from a re-analysis of the deposited data

How the results depend on the processing

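Of 498 values of the 10 genes under alternatives, 487 kept their size within the lane spread and their call, 5 moved, 6 gained a call and 0 lost one or changed direction past a call. Bmpr2 stayed between 1.72 and 1.86 for cocaine and between 1.77 and 1.91 for withdrawal against saline when any lane was left out, and between 0.02 and 0.09 for withdrawal against cocaine. For cocaine against saline (411 genes higher, 338 lower), a minimum of 5 RPKM gave 182 and 217, a limit of 2 times gave 112 and 34, and the lower count was 230, 204 and 98 with median centring, 75th percentile scaling and centring by gene length; Smad5 was 0.16, 0.18 and -0.0196 under these, and Smad9, 0.29 to 0.61 without single lanes, made 2 genes of the 10 called without saline lane 1. For withdrawal against saline (557 and 473), 5 RPKM gave 266 higher, 2 times gave 146 and 44, and the lower count was 309, 280 and 175; 2 genes of the 10 were then called, with Smad4 at 0.60, 0.61 and 0.61, as it was at 0.61 and 0.59 without withdrawal lane 3 or saline lane 1 in a range of 0.46 to 0.61 without single lanes, and with centring by length Acvr2b was 0.49 and Smad5 -0.12. For withdrawal against cocaine (66 and 77), 5 RPKM gave 15 and 28, no minimum 138 and 158, 2 times 17 and 10, no condition on lanes 155 and 159, and composites 141 and 141. Leaving out a lane gave 445 to 502 higher and 384 to 464 lower for cocaine, 611 to 655 and 565 to 639 for withdrawal, and 89 to 135 and 120 to 154 between them. Ranges of 2 lanes overlap less often than those of 3, and the part of this in the counts was not tested. Of the 10 genes 1 to 2 were then called against saline. Smad9 for cocaine and Smad4 for withdrawal, the genes added, had lanes wholly above saline with all 3 lanes too, and their differences passed the size limit. With the lane number as a replicate block the counts were 447 and 381, 623 and 544, and 98 and 105, and no call of the 10 genes changed. Why the scalings and the minimum move the counts was not tested.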

Other observations

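Smad6 encodes an inhibitory Smad that BMP signalling is known to induce and that blocks type I receptors. It lay under the minimum level and is given here after its values were seen, at 0.450, 0.462 and 0.479 RPKM in withdrawal lanes, 0.716, 0.637 and 0.542 RPKM in cocaine lanes, and 0.0519, 0.147 and 0.0818 RPKM in saline lanes. Lanes of both cocaine-treated libraries lay above all saline lanes. The values rest on 29 read equivalents in the withdrawal library, 48.8 in the cocaine library and 7 in the saline library, so no fold change is given. Bambi, which encodes a pseudoreceptor that dampens BMP and TGF-beta signalling, measured 0.537, 0.380 and 0.790 RPKM in withdrawal lanes, 0.675, 0.540 and 0.629 RPKM in cocaine lanes, and 0.867, 0.936 and 0.759 RPKM in saline lanes. Its cocaine lanes lay below its saline lanes, and its withdrawal lanes overlapped both. These are values of 3 pooled libraries, and no test between treatments can be had.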
